A study of Mus musculus with 6 samples.

Results

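The 10 genes described here encode the enzymes and lectin chaperones that form disulfide bonds and fold glycoproteins in the endoplasmic reticulum (ER). They were taken by gene symbol as a functional group, and all 10 were found among the 15133 named genes of the table: P4hb, Pdia3, Pdia4, Pdia5, Pdia6, Txndc5, Ero1l, Ero1lb, Calr and Canx. The platform table writes Ero1l as Ero1a and Ero1lb as Ero1b, and these current symbols are used from here on. Expression was measured on 6 arrays of primary hepatocytes from male C57Bl6 mice, kept between collagen layers in serum-free medium with insulin, glucagon and hydrocortisone. For 48 hours 3 cultures received 10 µM cyclosporin A (CsA), an immunosuppressive cyclic peptide whose complex with cyclophilin blocks the phosphatase calcineurin, and 3 received 0.5% DMSO, the vehicle. The labels describe independent experiments from different animals and give 3 arrays per condition. The titles of the 3 CsA arrays begin with 1 shared code and those of the 3 DMSO arrays with 3 different codes, whose meaning the labels do not give, so the independence of the CsA arrays rests on the label text alone. The labels do not say if DMSO was also present with CsA. Values are log2 RMA expression values, on which a difference of 1 is a doubling, and levels are not compared between genes.

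Secreted and membrane proteins enter the ER unfolded, and a hepatocyte exports large amounts of plasma protein by this route. Protein disulfide isomerases of the thioredoxin fold introduce and reshuffle disulfide bonds in these clients, and the ERO1 oxidases reoxidise the isomerases at the expense of oxygen, which yields hydrogen peroxide. Calreticulin and calnexin hold glycoproteins through their trimmed glucose-bearing glycans and bring them to the isomerase ERp57. Unfolded protein in the ER raises the transcription of many of these genes through the sensors ATF6, IRE1 and PERK. A known site of ATF6 action is the ER stress response element (ERSE), in which a CCAAT box, bound by NF-Y, lies 9 bases from a CCACG box.

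The promoter windows of the 10 genes were searched for this element. RefSeq (GRCm38.p6) gave a window from 250 bases before to 50 bases after the transcription start site for all 10 genes, with 3 start sites for Txndc5 and 1 for each other gene. The exact element, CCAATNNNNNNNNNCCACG on either strand, stood in the windows of 4 of the 10 genes, Pdia6, Ero1b, Calr and Canx. Among all RefSeq genes with such a window 0.137% held it (37 of 27025), and among all windows 0.119% (39 of 32851). The 250 bases before the start site of these 4 genes are printed 5′ to 3′ on the gene's strand, with the element in capitals. They lie at chr12:17266339-17266588 (plus strand), chr13:12565633-12565882 (plus strand), chr8:84846932-84847181 (minus strand) and chr11:50325674-50325923 (minus strand).
Pdia6: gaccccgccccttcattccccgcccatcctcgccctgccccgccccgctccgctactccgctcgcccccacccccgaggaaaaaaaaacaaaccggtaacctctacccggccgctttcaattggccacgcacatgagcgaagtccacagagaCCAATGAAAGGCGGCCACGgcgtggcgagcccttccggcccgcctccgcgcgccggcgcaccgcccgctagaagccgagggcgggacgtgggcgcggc
Ero1b: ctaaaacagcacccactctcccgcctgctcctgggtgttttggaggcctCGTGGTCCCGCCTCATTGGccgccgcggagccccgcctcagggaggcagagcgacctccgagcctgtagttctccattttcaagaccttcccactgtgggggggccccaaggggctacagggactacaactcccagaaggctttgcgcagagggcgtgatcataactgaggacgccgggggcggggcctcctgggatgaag
Calr: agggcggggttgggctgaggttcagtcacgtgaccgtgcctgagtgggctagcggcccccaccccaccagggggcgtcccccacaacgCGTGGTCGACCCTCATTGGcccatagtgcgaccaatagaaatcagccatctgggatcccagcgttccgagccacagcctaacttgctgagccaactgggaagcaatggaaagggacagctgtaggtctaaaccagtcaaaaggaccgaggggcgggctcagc
Canx: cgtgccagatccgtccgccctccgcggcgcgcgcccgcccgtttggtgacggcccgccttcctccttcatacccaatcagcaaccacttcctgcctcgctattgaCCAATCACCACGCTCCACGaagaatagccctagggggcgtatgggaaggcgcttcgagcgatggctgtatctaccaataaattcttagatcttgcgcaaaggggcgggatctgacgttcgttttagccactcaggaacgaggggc

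In Pdia6 and Canx the element ran in the direction of the gene, from 98 to 80 and from 145 to 127 bases before the start site. In Ero1b and Calr it lay on the opposite strand, from 201 to 183 and from 162 to 144 bases before the start site. The element without its last base, CCAATNNNNNNNNNCCAC, was found in Pdia3 and Pdia4 as well, which makes 6 of the 10 genes. Of all genes with a window 0.429% held it, and of all windows 0.365%. The shorter form was searched after the windows had been read, and it includes every match of the full form. In P4hb a CCAAT box and a CCACG box also followed each other on the gene's strand, but with 6 bases between them. The 100 bases around each are printed with the shortened element of Pdia3 (chr2:121413802-121413901, plus strand) and Pdia4 (chr6:47813560-47813659, minus strand) and both boxes of P4hb (chr11:120573252-120573351, minus strand) in capitals.
Pdia3: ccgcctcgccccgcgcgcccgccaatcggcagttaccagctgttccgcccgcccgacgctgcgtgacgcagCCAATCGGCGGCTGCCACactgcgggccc
Pdia4: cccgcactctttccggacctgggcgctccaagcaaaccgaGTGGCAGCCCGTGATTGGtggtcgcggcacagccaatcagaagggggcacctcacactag
P4hb: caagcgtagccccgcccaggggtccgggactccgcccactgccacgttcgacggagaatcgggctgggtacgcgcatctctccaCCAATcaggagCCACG

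None of the 12 windows of the 10 genes held the ERSE-II element (ATTGGNCCACG) or the ATF4-type element TGATGNAAT, which stood in 0.0365% and 0.965% of all windows. The UPRE core TGACGTGG, a site of ATF6 and XBP1, stood in 1 window of Txndc5 and in 0.676% of all windows. Both strands were searched for each, and the CCACG box of the ERSE also ends the ERSE-II. A match describes the letters in these windows, and binding was not measured.

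**Figure D1:**
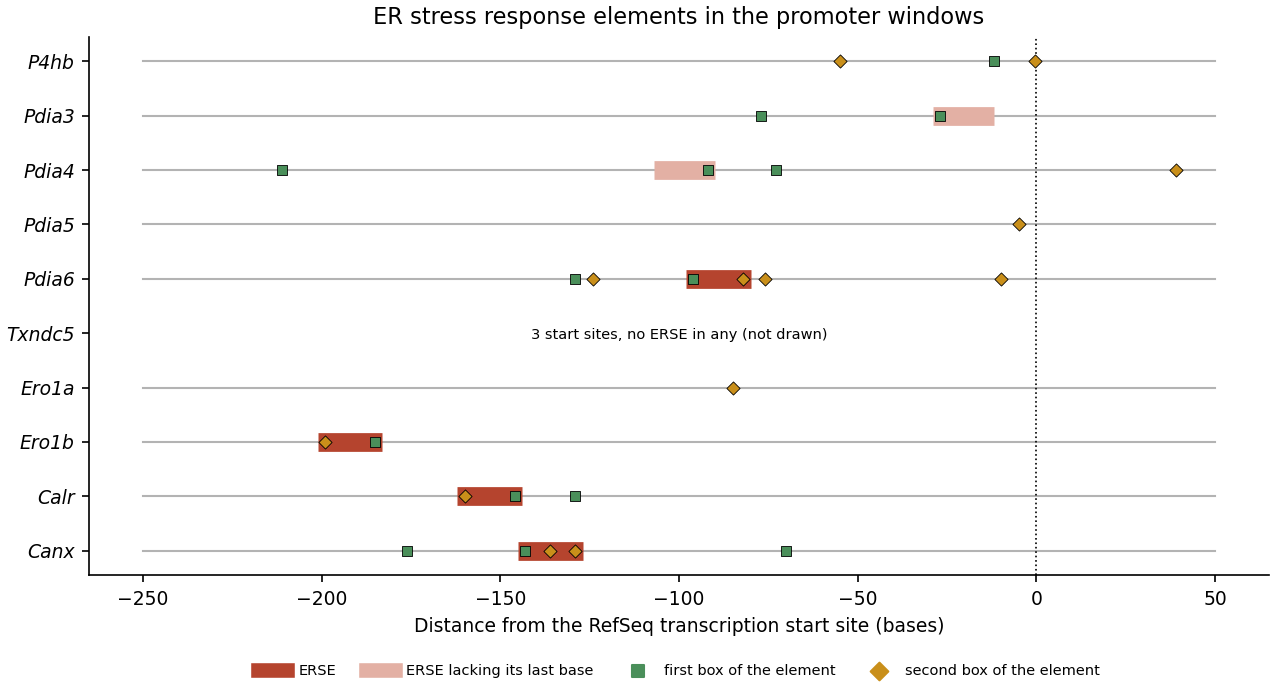
Position of ERSE matches in the RefSeq promoter window of each gene, in bases from the transcription start site. Every CCAAT (first box) and CCACG (second box) on either strand is also drawn, whether or not it is part of an ERSE. Such single boxes stood in 41.1% and 35.5% of all genes with a window. The full element is present in Pdia6, Ero1b, Calr and Canx, the form lacking its last base in Pdia3 and Pdia4, and neither in P4hb, Pdia5 and Ero1a. The 3 windows of Txndc5 held neither form and are not drawn.

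After CsA, 6 of the 10 genes rose and 0 fell. Pdia6, Ero1a, Pdia4, Calr, P4hb and Ero1b passed an adjusted p of 0.05 in limma, and all 10 differences were positive, from 0.32 for Txndc5 to 1.20 for Pdia6. Of all 16331 rows 18.6% passed, 9.55% higher and 9.05% lower. The median difference of the 10 genes was 0.69, against 0.04 over all rows, and their differences lay between percentiles 83.5 and 99.3 of all rows. In 7 of the 10 genes every CsA array lay above every DMSO array, as in 19.8% of all rows, and in 0 of the 10 below, as in 15.3% of all rows. With the replicate number as a block, 9 of the 10 genes were higher and 0 lower, against 15.8% and 12.9% of all rows, and Txndc5 remained outside the threshold. Same-numbered arrays deviated together from their group means, so blocked results are given too. Blocked values stand beside each changed call of the 10 genes, and mainly blocked counts are given for the related lists and markers. As the arrays hold bulk RNA, more RNA per cell and a changed mix of cells cannot be told apart.

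**Figure D2:**
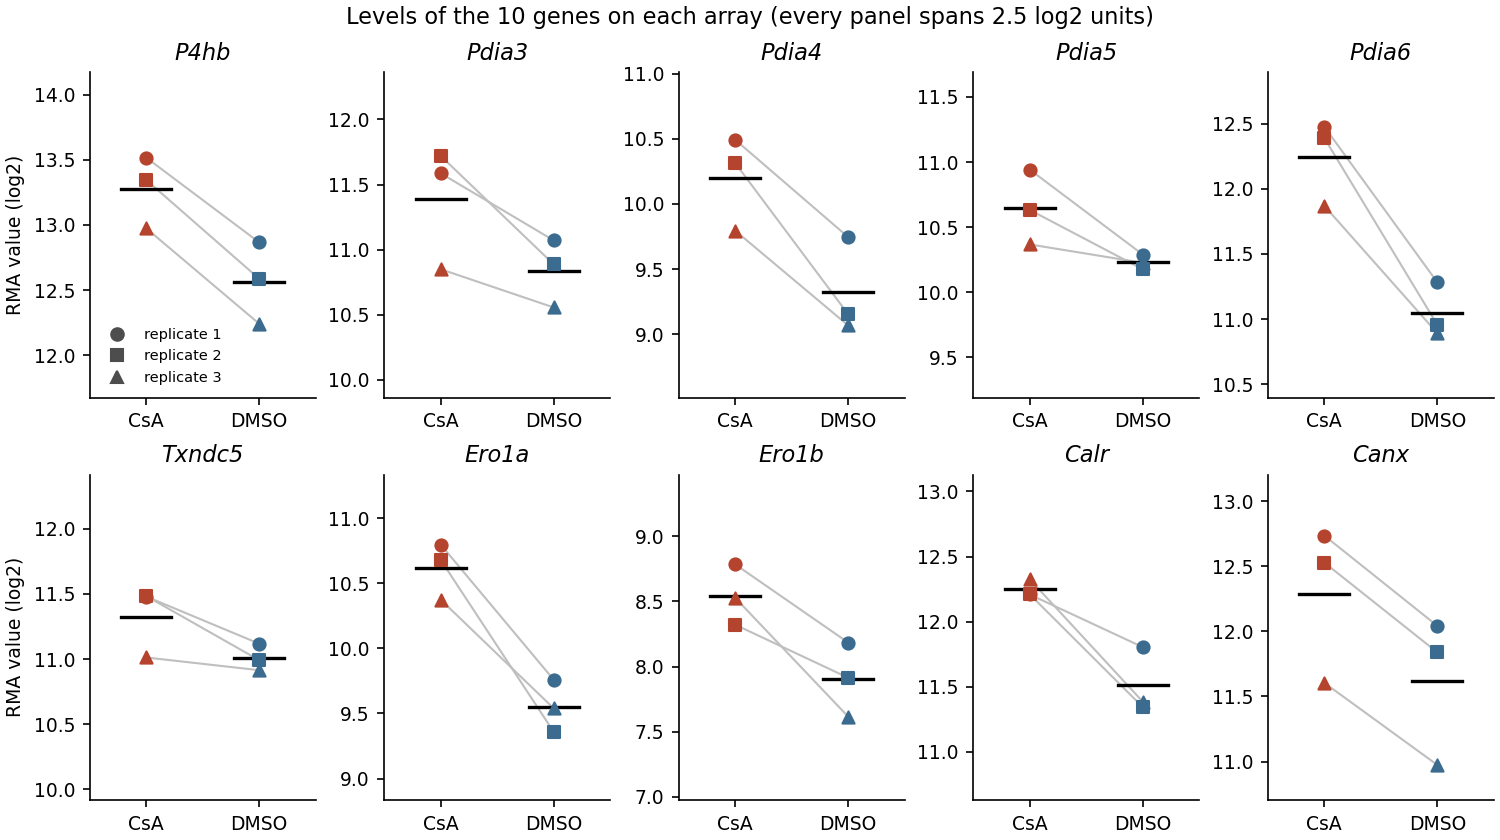
RMA values (log2) of each gene on the 3 CsA arrays (left in each panel) and the 3 DMSO arrays (right), with lines joining same-numbered arrays and bars at group means. On all lines the CsA end is the higher one, by 0.10 (Txndc5, replicate 3) to 1.43 (Pdia6, replicate 2).

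Among the isomerases, Pdia6 (P5), a partner of the chaperone BiP, showed the largest difference of the 10 genes. It had 12.48, 12.39 and 11.87 in CsA replicates 1 to 3, against 11.28, 10.96 and 10.89 in DMSO replicates 1 to 3. The lowest CsA value stood 0.59 above the highest DMSO value. Pdia6 rose 2.30-fold (log2 difference 1.20 ± 0.18, SE, adjusted p = 0.00241). Pdia4 (ERp72), an isomerase with an additional catalytic domain, had 10.49, 10.31 and 9.79 in CsA cultures, against 9.74, 9.15 and 9.07 in DMSO cultures. The groups met closely, with CsA replicate 3 just above DMSO replicate 1, and the rise was 1.84-fold (0.88 ± 0.22, adjusted p = 0.0267). P4hb, the founding isomerase (PDI) and also a subunit of collagen prolyl 4-hydroxylase and of the microsomal triglyceride transfer protein, had 13.52, 13.35 and 12.97 in CsA cultures, against 12.87, 12.59 and 12.24 in DMSO cultures. It rose 1.64-fold (0.71 ± 0.19, adjusted p = 0.0312), and same-numbered arrays differed by 0.65, 0.76 and 0.73. Both P4hb and Pdia4 missed the threshold when 1 of 4 arrays was left out, with adjusted p values of 0.0881 and 0.0992 for the second DMSO array, 0.0732 and 0.0729 for the third DMSO array, 0.104 and 0.0902 for the first CsA array and 0.103 and 0.0944 for the second CsA array.

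The other 3 isomerases did not pass on all 6 arrays without the block. Pdia3 (ERp57), which works on glycoproteins held by calreticulin and calnexin, had 11.59, 11.72 and 10.85 in CsA cultures, against 11.07, 10.89 and 10.56 in DMSO cultures. CsA replicate 3 lay within the DMSO range, and the difference was 0.55 ± 0.23 (adjusted p = 0.145, and adjusted p = 0.0138 with the replicate block). Pdia5 (PDIr) had 10.94, 10.63 and 10.37 in CsA cultures, against 10.29, 10.18 and 10.23 in DMSO cultures. The groups were apart, but the DMSO values were close together and the CsA values spread, with a difference of 0.42 ± 0.15 (adjusted p = 0.0896, and adjusted p = 0.0351 with the replicate block). Txndc5 (ERp46) had 11.48, 11.48 and 11.01 in CsA cultures, against 11.12, 10.99 and 10.91 in DMSO cultures. Its difference of 0.32 ± 0.15 was the smallest of the 10 and passed neither fit (adjusted p = 0.186, and 0.0639 with the replicate block). Without CsA replicate 3, Pdia3, Pdia5 and Txndc5 passed with differences of 0.81, 0.56 and 0.47 (adjusted p = 0.0113, 0.0208 and 0.0242). None of the 3 passed when 1 of the other 5 arrays was left out. The difference of Pdia5 was then as low as 0.27, without CsA replicate 1 (adjusted p = 0.25), that of Pdia3 as low as 0.38 (adjusted p = 0.397) and that of Txndc5 as low as 0.24 (adjusted p = 0.457), both without CsA replicate 2.

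The oxidases that recharge the isomerases rose. Ero1a, the widely expressed oxidase, had 10.80, 10.68 and 10.37 in CsA cultures, against 9.76, 9.36 and 9.54 in DMSO cultures. The groups stood well apart, with a 2.09-fold rise (1.06 ± 0.15, adjusted p = 0.0018). Ero1b, the paralog best known from the insulin-producing cells of the pancreas, had 8.78, 8.32 and 8.53 in CsA cultures, against 8.18, 7.91 and 7.61 in DMSO cultures. The rise was 1.56-fold (0.64 ± 0.17, adjusted p = 0.0331). Ero1b missed the threshold when DMSO 2 or DMSO 3 (adjusted p = 0.0954 and 0.0775), CsA 1 or CsA 3 (0.110 and 0.0574) or both arrays numbered 3 (0.088) were left out. Within an array, Ero1a minus Ero1b was 2.01, 2.36 and 1.85 in CsA cultures, against 1.58, 1.45 and 1.92 in DMSO cultures. These differences overlapped, and Ero1a was not shown to have changed more than Ero1b (difference 0.42, exact two-sided permutation test over 6 arrays, p = 0.20, where 0.1 is the smallest p possible).

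Of the lectin chaperones, the soluble calreticulin gene rose and the membrane-bound calnexin gene did not pass on all 6 arrays without the block. Calr had 12.21, 12.21 and 12.32 in CsA cultures, against 11.80, 11.34 and 11.39 in DMSO cultures. The CsA values had an SD of 0.07 (n = 3), and the rise was 1.67-fold (0.74 ± 0.14, adjusted p = 0.0076). Canx had 12.74, 12.53 and 11.60 in CsA cultures, against 12.04, 11.84 and 10.97 in DMSO cultures. The groups overlapped, with both arrays numbered 3 low and an SD of 0.60 in CsA and 0.57 in DMSO cultures, while same-numbered arrays differed by 0.69, 0.69 and 0.63. The difference of 0.67 ± 0.34 gave an adjusted p of 0.222, and the replicate block gave a standard error of 0.09 and an adjusted p of 0.00159. Canx also passed without CsA replicate 3 (1.01, adjusted p = 0.0439) and without both arrays numbered 3 (0.69, adjusted p = 0.0104). Its difference was 0.35 without DMSO replicate 3 (adjusted p = 0.509) and 0.45 without CsA replicate 1 (adjusted p = 0.498). Calr minus Canx within an array was -0.53, -0.32 and 0.72 in CsA cultures, against -0.24, -0.49 and 0.41 in DMSO cultures (difference 0.07, exact two-sided permutation test over 6 arrays, p = 0.90).

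**Figure D3:**
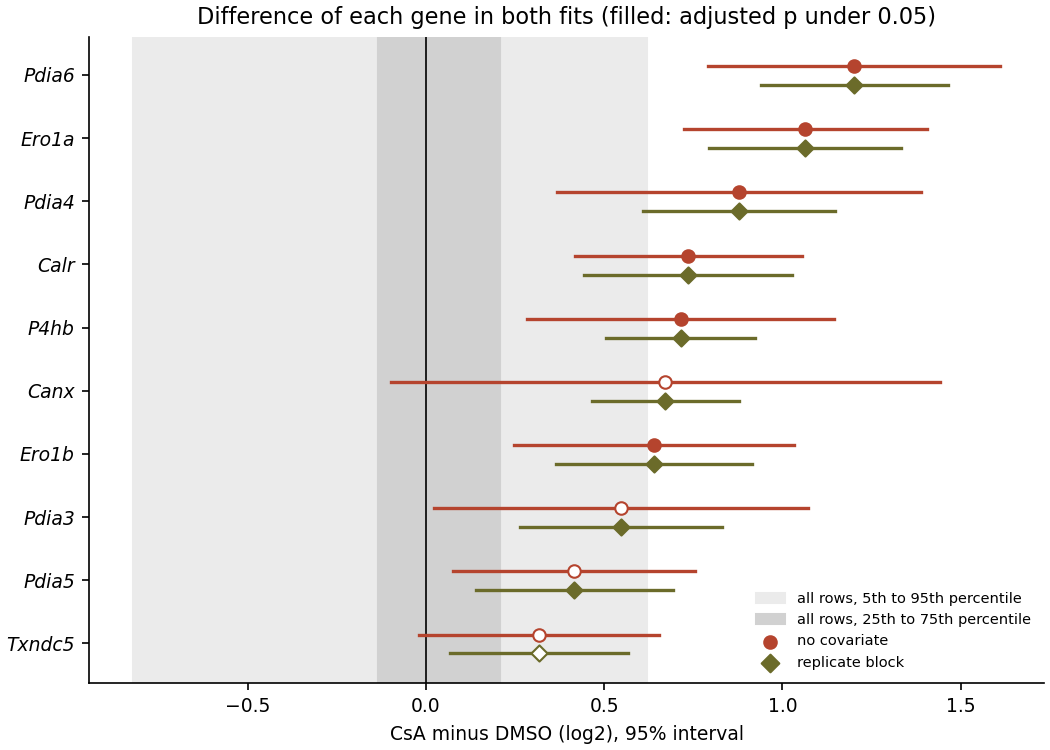
CsA minus DMSO (log2) of each gene with its 95% interval, without a covariate (circles) and with the replicate number as a block (diamonds), filled where the adjusted p is under 0.05. Grey bands hold the middle of the differences of all rows. The block shortens the interval of Canx most, and the 6 genes called without it are also called with it.

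The replicates numbered 3 stood low for most of these genes. CsA replicate 3 was the lowest CsA array in 8 of the 10 genes, against 30.8% of all rows, and DMSO replicate 3 the lowest DMSO array in 7 of the 10, against 28.4% of all rows. Calr was an exception in CsA cultures, where its replicate 3 was the highest. In all 10 genes each of the 3 same-numbered pairs was higher in CsA, as in 32.8% of all rows. Left out one at a time, DMSO replicate 2, DMSO replicate 3 or CsA replicate 1 reduced the number of the 10 genes called higher to 3, CsA replicate 2 to 4, DMSO replicate 1 left 6, and without CsA replicate 3 there were 9. Without both arrays numbered 3 there were also 9. Pdia6, Ero1a and Calr kept their call in all 16 alternatives run, with adjusted p values up to 0.0143, 0.0111 and 0.0378.

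Genes that work beside these 10 changed less uniformly. Of 59 measured genes in 6 related lists, 14 were higher, 3 lower and 42 did not pass, with a median difference of 0.19. With the replicate block 20 were higher and 7 lower. Of all rows 9.55% were higher and 9.05% lower, and 15.8% and 12.9% with the block. The 14 became 9 without the second DMSO or the second CsA array, and the 3 became 1 without the first DMSO, the second DMSO or the second CsA array and 5 without the third DMSO array. The rest of the isomerase family had 1 higher and 0 lower of 16 (2 and 1 with the replicate block), with a median of 0.09. These counts were not above the shares of all rows. Agr2, Erp27, Agr3, Casq2, Pdia2 and Pdilt of this list had mean values of 3.07 to 4.11 over the 6 arrays. The lowest value in the data was 2.44 and RMA compresses very dim rows, so a change in these genes could be missed. Erp44, which holds ERO1 and unassembled clients in the early secretory pathway, was the gene that rose (0.35 ± 0.10, adjusted p = 0.0395). It missed the threshold without any 1 array other than CsA replicate 3 (adjusted p = 0.08 to 0.126) and with a trended prior variance (0.0503). Dnajc10 (ERdj5), a reductase that opens disulfides, differed by 0.44 (adjusted p = 0.227, and adjusted p = 0.0306 with the replicate block) and is named after its value was seen. It passed without CsA replicate 3 (0.69, adjusted p = 0.0194) and was at 0.29 without CsA replicate 1 (adjusted p = 0.511). Txndc16, the gene lower with the block and named for that, differed by -0.33 (adjusted p = 0.197, and adjusted p = 0.0396 with the replicate block).

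In the list of other ER thiol oxidation genes 5 of 9 were higher and 1 lower (2 lower with the replicate block), with a median of 0.54. Prdx4, a peroxiredoxin that uses peroxide to oxidise isomerases, had 11.56, 11.47 and 11.33 in CsA cultures, against 10.68, 10.93 and 10.90 in DMSO cultures (0.62 ± 0.12, adjusted p = 0.00742). Gpx7, an ER peroxidase with a like role, rose by 0.54 (adjusted p = 0.00678) and the sulfhydryl oxidase gene Qsox2 by 0.68 (adjusted p = 0.00429). Selenos, a selenoprotein of the ER membrane that takes part in the export of misfolded protein, rose 2.14-fold (adjusted p = 0.000191), and the fifth, Selenom, named to complete the count, rose by 0.62 (adjusted p = 0.0192). Vkorc1, the vitamin K epoxide reductase, fell by 0.52 (adjusted p = 0.0217). Qsox1, the other sulfhydryl oxidase gene of the list, was also lower with the block and is named for that. It differed by -0.44, opposite to Qsox2 (adjusted p = 0.0545, and adjusted p = 0.00875 with the replicate block). All its CsA values lay below all its DMSO values. Selenom and Vkorc1 missed the threshold without the second DMSO array (adjusted p = 0.0804 and 0.0796) or the second CsA array (0.0716 and 0.0936), and Vkorc1 also without the first DMSO array (0.0813).

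For the glycoprotein cycle around calnexin and calreticulin 2 of 19 genes were higher and 1 lower (6 and 3 with the replicate block), with a median of 0.14. Of all rows 9.55% were higher and 9.05% lower (15.8% and 12.9% with the block). Without the block, the number higher in this list was thus near the share of all rows. Uggt1 and its paralog Uggt2 rose by 0.48 and 0.50 (adjusted p = 0.0156 and 0.0406). UGGT1 puts a glucose back on incompletely folded glycoproteins, which returns them to the lectin chaperones. Man1a, a Golgi mannosidase, fell by 0.72 (adjusted p = 0.0189). Uggt2 missed the threshold without any 1 of the 6 arrays (adjusted p = 0.0515 to 0.133). Uggt1 missed it without DMSO 2, CsA 1 or CsA 2 (0.0703, 0.063 and 0.0622), and Man1a without DMSO 1, DMSO 2 or CsA 2 (0.0586, 0.0656 and 0.0794).

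Of the 3 measured partners of P4hb 1 was higher and 1 lower. Mttp, which encodes the large subunit of the triglyceride transfer protein, had 8.75, 8.39 and 8.31 in CsA cultures, against 10.50, 10.17 and 9.81 in DMSO cultures, and was 3.19-fold lower (adjusted p = 0.000639). P4ha2, a catalytic subunit of prolyl 4-hydroxylase, rose by 0.50 (adjusted p = 0.0276; 0.0528 to 0.103 without DMSO 1, DMSO 2, CsA 1 or CsA 2), and P4ha1 differed by 0.19 ± 0.15 (adjusted p = 0.441).

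Of 9 luminal chaperones and cochaperones that cooperate with these enzymes 4 were higher and 0 lower (5 higher with the replicate block), with a median of 0.64. In 7 of the 9 every CsA array lay above every DMSO array, as in 19.8% of all rows. Of the 9 differences 8 were positive, and Sil1 differed by -0.12 (adjusted p = 0.628). This list was thus close to the 10 folding genes. Manf and Sdf2l1, both soluble ER stress proteins, rose by 1.83 and 1.51 (adjusted p = 6.29e-05 and 0.000496), the BiP gene Hspa5 by 1.07 and the GRP94 gene Hsp90b1 by 0.91 (adjusted p = 0.000471 and 0.0103). Many isomerases end in a retrieval signal that the KDEL receptors bind. Kdelr3 rose by 0.92 (adjusted p = 0.00412), and the other 2 receptor genes did not pass.

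**Figure D4:**
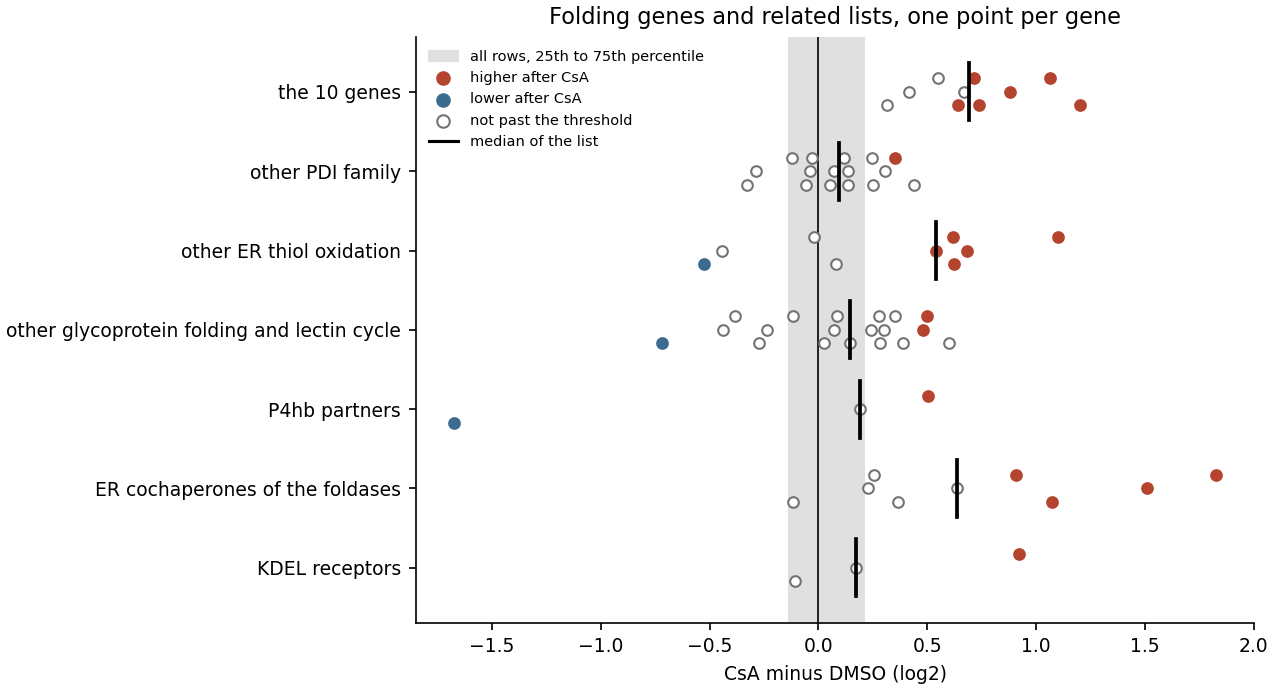
CsA minus DMSO (log2) of the 10 genes and of 59 related genes by list, one point per gene, coloured where the adjusted p is under 0.05, with list medians. The 10 genes lie wholly right of 0, whereas every related list has genes on both sides. In the list of ER cochaperones 8 of 9 genes lie right of 0.

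Of 8 hepatocyte markers 6 were lower after CsA and 0 higher (7 lower with the replicate block, which added Apoc3). Fabp1, a fatty acid binding protein, fell most of the 8. It had 5.51, 5.62 and 6.01 in CsA cultures, against 9.77, 8.53 and 8.85 in DMSO cultures. The mean level of the 8 markers per array was 11.55 to 11.93 in CsA and 12.91 to 12.98 in DMSO cultures. Of 43 measured markers of macrophages, stellate, endothelial and bile duct cells and leukocytes, 1 was higher (Oit3, by 0.67) and 5 lower. With the replicate block 1 was higher and 8 lower. Of all rows 9.55% were higher and 9.05% lower (15.8% and 12.9% with the block), so 5 lower was near the share of all rows. The mean levels of these 43 markers per array were 4.72 to 4.83 in CsA and 4.81 to 5.12 in DMSO cultures. Levels are not compared between the marker sets. All 11 stellate cell and fibroblast markers had negative differences, 1 of them past the threshold (3 with the replicate block). The part of these shifts in the rise of the folding genes was not tested. The scale has no zero, so a marker cannot be called absent.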

How the data were processed

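The data are 6 arrays of mouse hepatocytes. The authors deposited log2 values, with 1 row per Entrez gene, and the submitters' processing notes name RMA and R 2.11.0. RMA brings the arrays towards a common distribution, so changes in total RNA cannot be read from these values. It also compresses very dim and very bright rows. The array type and genome build of the probes are not given in the sources used here. Values ran from 2.44 to 15.3. Array medians were not fully equal, at 6.71, 6.70 and 6.72 in CsA cultures, against 6.77, 6.74 and 6.78 in DMSO cultures.

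Platform symbols named 15136 of 16331 rows. Groups came from the titles. CsA was compared with DMSO by limma 3.58.1 in R 4.3.3 (lmFit, eBayes, two-sided, no covariate), with Benjamini-Hochberg adjustment over all rows and a threshold of 0.05. The fit was tested on simulated data. Precision is limited by 3 arrays per group. The genes and lists were chosen with earlier results of these data known.

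Related genes were named as up to 4 per list and direction with the smallest adjusted p, and all measured partners of P4hb. Deviations from group means correlated between same-numbered arrays at 0.398, 0.242 and 0.499, each the best match of its CsA array. The deviations within a group cancel out, so some correlations between CsA and DMSO arrays had to be positive and others negative. DMSO replicate 2 correlated almost as well with CsA replicate 1 (0.22), so its pairing was weakly marked. The pairing was read in part from the same values that were then fitted. With independent experiments from different animals per the labels, the numbers were taken to pair the arrays, and the replicate block was an alternative. That both arrays of a number share an animal is inferred, and the codes that open the titles do not pair them. Other alternatives were other prior variances, array weights, repeated normalization, centring, filters on dim rows, a threshold of 0.01 and leaving out arrays. Promoter windows and motif matches came from RefSeq (GRCm38.p6), read with Python 3.11.15.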

Additional observations from a re-analysis of the deposited data

How the results depend on the processing

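All 10 genes kept a positive difference in every one of the 16 alternatives, and 0 were called lower in any. The number called higher, 6 without a covariate, was 9 with the replicate block, 10 with weighted arrays, 3 at the threshold of 0.01, 9 without both arrays numbered 3, and 3 to 9 with 1 array left out; it was 6 with each other prior variance, normalization or filter. The related genes, 14 higher and 3 lower, became 20 and 7 with the replicate block, 23 and 6 with array weights, 8 and 1 at 0.01, 15 and 5 with the dimmest 50% of rows left out, 19 and 5 without both arrays numbered 3, and 9 to 18 higher and 1 to 5 lower with 1 array left out. Over all rows, 1559 were higher and 1478 lower. The block gave 2582 and 2104, array weights 2927 and 2263, the threshold of 0.01 gave 627 and 882, and leaving out 1 array gave 764 to 1697 higher and 974 to 1522 lower. Centring the arrays on their medians gave 2110 higher and 1347 lower, and moved the median difference of the 10 genes to 0.74. That median was 0.52 to 0.87 with 1 array left out. Ero1a minus Ero1b differed by 0.28 to 0.56 with 1 array left out and by 0.68 without both arrays numbered 3, and Calr minus Canx, never called, by -0.32 to 0.32. The cause of these shifts was not tested, except that leaving out an array leaves fewer samples.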

Other observations

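Outside the 10 folding genes, 14 measured and named genes held the full ERSE in a RefSeq promoter window, of which 4 were higher and 1 lower after CsA, against 9.55% and 9.05% of all rows. With the replicate block Zfp57 was higher as well (0.33, adjusted p = 0.063, and 0.0293 with the block). The 4 were Hspa5 (1.07), Creld2, which encodes an ER stress-inducible secreted protein (0.93, adjusted p = 0.00138), Hsp90b1 (0.91) and Syvn1, the ubiquitin ligase of ER-associated degradation (0.44, adjusted p = 0.0161). Acnat2 was lower (-3.20, adjusted p = 0.000121), and Derl3, a membrane protein of the same degradation route, differed by -0.04 (adjusted p = 0.865). Hspa5 and Hsp90b1 were already counted among the luminal chaperones and cochaperones. Dnajc3 of that list also held the element and did not pass (0.23, adjusted p = 0.307). These genes were taken by sequence and named after their values were seen.

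Over the 6 arrays, the named genes whose profile was most like the mean scaled profile of the 10 genes were Grb10 (Pearson's r = 0.999), Clptm1l (0.998), Tmem39a (0.998), Mtm1 (0.997) and Sgpl1 (0.997). Grb10 rose by 1.40 (adjusted p = 0.00877), and Clptm1l differed by 0.42 (adjusted p = 0.0659). These profiles share 6 arrays and 1 group difference, and 244 of 15123 named genes had an r above 0.95. Each of the 10 genes correlated with the mean of the other 9 at 0.83 (Calr) to 0.99 (Pdia4).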
